A study of Mus musculus with 15 samples.

Results

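The genes described here encode the CD3 chains of the T cell receptor complex, a chain of its CD8 coreceptor, and the kinases, adaptor and surface proteins that act close to it. They were measured in group 2 innate lymphoid cells (ILC2s), tissue-resident lymphocytes of the lung that do not use a rearranged antigen receptor. The 10 genes were chosen by symbol (Cd3d, Cd3e, Cd3g, Cd247, Cd8b1, Lck, Zap70, Lat, Cd5 and Thy1). Each was read from an array feature annotated with that symbol alone, which 8 of the 10 had, with 1 feature each. Cd247 and Lck had none and were not analysed here. The 8 measured genes stood among 16257 genes tested.

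The 15 Affymetrix arrays formed 5 groups of 3: neonates, effector females, effector males, naive females and naive males, each array labelled as a biological replicate. Neonates were naive and 10 days old, and the sex of each neonatal array was not labelled. Effector females and males were given IL-33 intranasally on 3 days in a row and sampled 1 day later. IL-33 is a cytokine released by damaged epithelium to which ILC2s respond. Naive adults were 8 weeks old. The labels name no group given a dose that lacked IL-33, and the age of the effector adults was not stated beyond adult, so dosing, IL-33 and a batch that follows the groups cannot be told apart. The mouse strain, the sorting markers and the number of mice per array were not given in the sources used here, and p-values measure the spread between these arrays.

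In T cells, antigen recognition brings the kinase Lck to the CD3 and zeta chains, where it phosphorylates paired tyrosines known as ITAMs. The kinase Zap70 docks there and phosphorylates the adaptor Lat, which assembles the complex that drives calcium, Ras and protein kinase C signalling. ILC2s do not use a T cell receptor, but they share regulators such as Gata3 with T cells, and the surface protein Thy1 is a customary marker of innate lymphoid cells.

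The upstream sequences of 4 members are shown because Cd3g, Cd3d and Cd3e lie next to each other, and because Lat had the largest difference of the members between effector and naive cells. RefSeq's promoter table (GRCm38.p6) held 8 of the 10 members. The 250 bases before the annotated start are given 5′ to 3′ on the gene's strand. Capitals mark GATAA, the core of a GATA motif, TGTGG, the core of a Runx motif, and AGGAAG, an Ets-type motif, on either strand, so that CCACA and CTTCCT are matches of the last pair on the opposite strand.
Lat, chr7:126369569-126369818, minus strand: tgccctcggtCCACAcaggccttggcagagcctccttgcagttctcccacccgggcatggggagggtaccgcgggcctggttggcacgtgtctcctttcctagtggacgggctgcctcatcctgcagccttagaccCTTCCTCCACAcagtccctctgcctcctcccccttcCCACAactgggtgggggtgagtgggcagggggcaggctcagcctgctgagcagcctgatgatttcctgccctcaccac
Cd3g, chr9:44980432-44980681, minus strand: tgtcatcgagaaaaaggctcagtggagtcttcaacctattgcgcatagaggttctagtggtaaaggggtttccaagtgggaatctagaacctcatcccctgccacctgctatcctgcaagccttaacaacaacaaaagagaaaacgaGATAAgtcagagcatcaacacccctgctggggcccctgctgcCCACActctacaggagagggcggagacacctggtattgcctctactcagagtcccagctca
Cd3d, chr9:44981536-44981785, plus strand: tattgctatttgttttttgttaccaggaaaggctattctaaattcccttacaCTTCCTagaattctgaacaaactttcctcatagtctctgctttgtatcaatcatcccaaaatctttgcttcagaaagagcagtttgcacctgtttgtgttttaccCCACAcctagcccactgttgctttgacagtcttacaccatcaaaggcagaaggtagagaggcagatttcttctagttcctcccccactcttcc
Cd3e, chr9:45009612-45009861, minus strand: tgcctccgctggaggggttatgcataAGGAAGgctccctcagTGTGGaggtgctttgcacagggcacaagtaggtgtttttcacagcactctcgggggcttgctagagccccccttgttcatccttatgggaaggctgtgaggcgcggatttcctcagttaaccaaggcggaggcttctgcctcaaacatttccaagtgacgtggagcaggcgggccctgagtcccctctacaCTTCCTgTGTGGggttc
The motifs were chosen after the sequences were seen. No 2 matches overlapped in these windows. GATAA was present upstream of Cd3g, at 103 to 99 bases before the start, and not in the other 3 windows. AGGAAG lay directly beside TGTGG upstream of Lat, and they lay 1 base apart just before the start of Cd3e, where AGGAAG reached 12 bases and TGTGG 6 bases from it. Cd3d held 1 match of each of these motifs, and Cd3g held TGTGG but not AGGAAG. Of 32851 promoter windows of the same length, 22.6% held GATAA, 49.3% TGTGG and 29.5% AGGAAG. A match describes the letters and not a bound site.

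Values are log2 levels of array signal as deposited, and differences are between group means on that scale. A gene was called, or passed, where limma's p adjusted over all genes tested was under 0.05, and only genes above the array's percentile 40 on 3 or more arrays were tested. Array medians lay between 4.44 and 4.64. As a measure of background, the 1390 olfactory and vomeronasal receptor genes, which serve the sensing of odours, had their upper quartile at 3.72 on neonatal, 3.37 on effector adult and 4.07 on naive adult arrays. Signal of genes that should be silent was thus lower on effector than on naive arrays. Naive male arrays 1 and 2 and neonatal array 2 correlated least with the other arrays (mean r = 0.895, 0.889 and 0.898). Of the ILC2 markers, Gata3 averaged 8.75 on neonatal, 8.72 on effector and 8.83 on naive adult arrays, and all 13 ILC2 markers with a feature lay above the background quartile in each group.

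**Figure D1:**
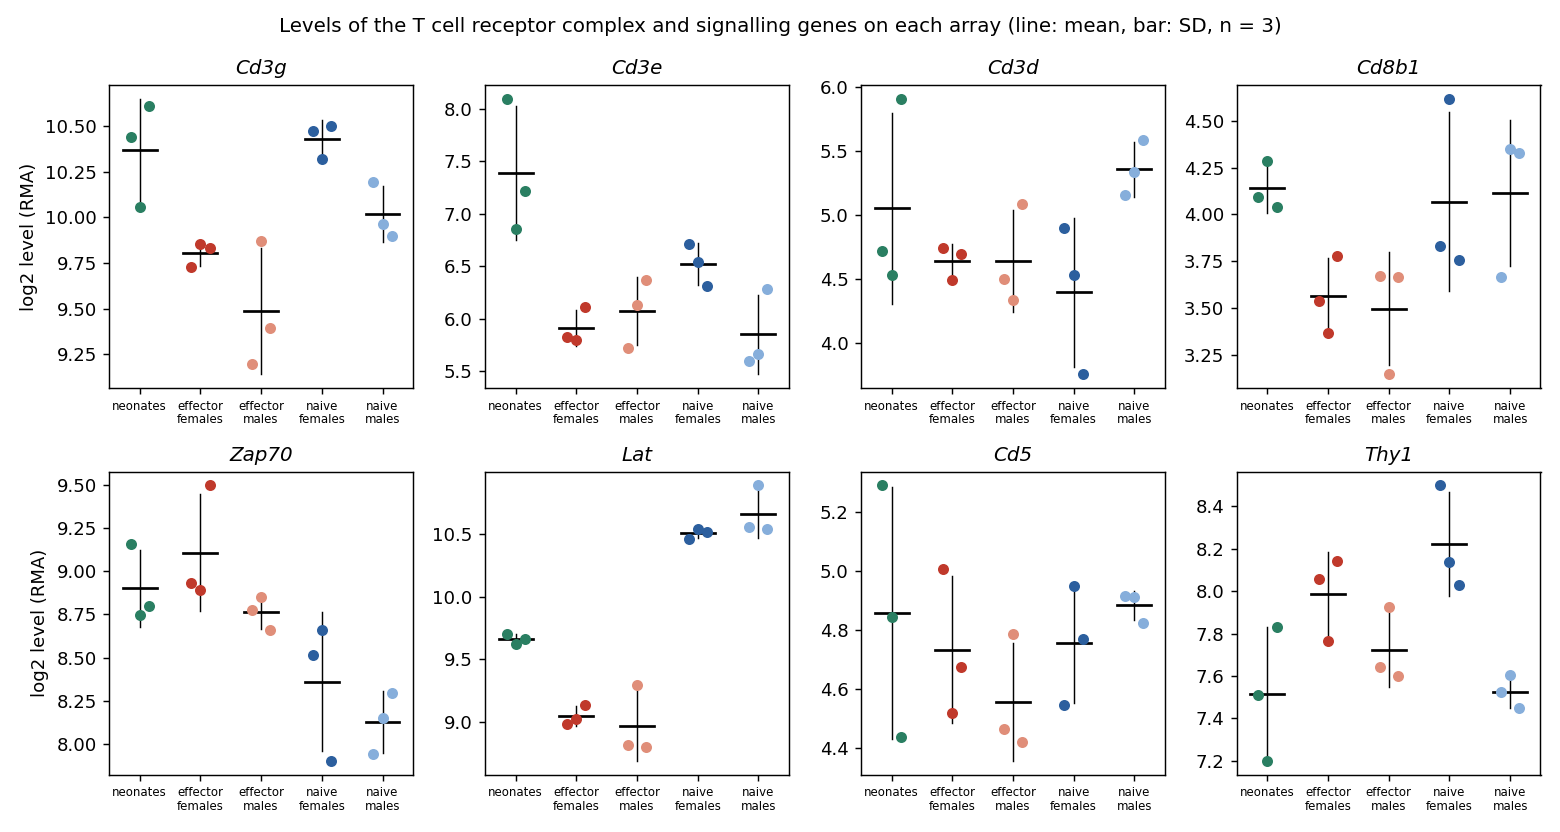
Log2 level of each measured gene on each of the 15 arrays, by group, with the group mean (line) and SD (bar, n = 3). Lat fell into 3 separate levels, with neonates between effector and naive adults, Cd3e was highest in neonates, and the vertical axes differ between panels.

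Among the receptor chains, Cd3g, which encodes CD3 gamma, had levels at the upper end of every array, above at least 96.4% of all features. Its levels were 10.44, 10.06 and 10.61 in neonates. They were 9.73, 9.85 and 9.83 in effector females and 9.20, 9.87 and 9.39 in effector males. In naive females they were 10.48, 10.32 and 10.50, and in naive males 10.19, 9.96 and 9.90. Every effector array lay below every naive array and every neonatal array, while neonatal and naive arrays overlapped. Cd3g was 1.49-fold lower in effector than in naive adults (log2 difference -0.58 ± 0.14, SE, n = 6 each; limma adjusted p = 0.00396). In bulk samples fewer cells of a type and less RNA per cell cannot be told apart. Cd3g was higher in neonates than in effector adults by 0.72 ± 0.17 (limma adjusted p = 0.00707), and neonates and naive adults differed by 0.14 ± 0.17 with a 95% interval of -0.21 to 0.50 (limma adjusted p = 0.643). Against effector females alone the difference of neonates was 0.56 and did not pass (limma adjusted p = 0.0686; range over all alternatives 0.00204 to 0.0686).

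Cd3e, which encodes CD3 epsilon, the chain that pairs with both gamma and delta, was highest in neonates. Its levels were 8.10, 6.85 and 7.22 in neonates, 5.82, 5.79 and 6.11 in effector females, 5.72, 6.13 and 6.37 in effector males, 6.71, 6.54 and 6.31 in naive females and 5.60, 5.67 and 6.29 in naive males. All 3 neonatal arrays lay above all 12 adult arrays, though the lowest neonatal array was close to the highest naive female array. Neonates exceeded naive adults by 1.21 ± 0.25 (2.31-fold; limma adjusted p = 0.00587) and effector adults by 1.40 ± 0.25 (2.64-fold; limma adjusted p = 0.00121). Against naive females alone the difference was 0.87 and did not pass (limma adjusted p = 0.0883; range over all alternatives 0.00233 to 0.0883). Effector and naive adults differed by -0.19 ± 0.20, with an interval of -0.62 to 0.23 (limma adjusted p = 0.484). Within the sexes the effector minus naive difference was -0.61 ± 0.28 in females and 0.22 ± 0.28 in males, but neither passed, nor did the test of their difference (-0.83 ± 0.40; limma adjusted p = 0.931). The female difference passed with array weights (-0.65; limma adjusted p = 0.0422) and with only the arrays compared (limma adjusted p = 0.0386). Sftpc, surfactant protein C of the lung epithelium, was also higher in neonates. It spanned 6.86 to 8.02 in neonates, 4.29 to 5.41 in effector and 4.50 to 7.25 in naive adults (1.98 ± 0.46 over naive adults; limma adjusted p = 0.0128). Of 6 endothelial and epithelial markers only 1, Sftpc, was called in neonates against naive adults, and the median difference of the 6 was 0.04. The part of Sftpc in the Cd3e result was not tested.

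Cd3d, which encodes CD3 delta, gave a signal near the background. On neonatal arrays 4.17% of the sensory receptor genes had a level at or above it, on effector arrays 4.96% and on naive arrays 9.64%. Its levels were 4.72, 4.53 and 5.91 in neonates, 4.74, 4.49 and 4.70 in effector females, 4.50, 4.33 and 5.09 in effector males, 4.90, 4.53 and 3.76 in naive females and 5.15, 5.34 and 5.58 in naive males. The groups overlapped except for naive males, whose lowest array lay above all effector and naive female arrays. None of the 3 main comparisons passed for Cd3d, with differences of -0.23 ± 0.24 for effector against naive adults, 0.17 ± 0.29 for neonates against naive adults and 0.41 ± 0.29 for neonates against effector adults (limma adjusted p = 0.478, 0.761 and 0.35).

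Of these 3 neighbours in RefSeq's gene order, Cd3g was called between effector and naive adults and Cd3e between neonates and naive adults, and differences between the genes were not tested. Of the 2 nearest protein-coding genes on each side of them, Ube4a and Atp5l beyond Cd3g did not pass in the effector comparison (0.21 ± 0.18 and 0.11 ± 0.10; limma adjusted p = 0.382 and 0.396). Beyond Cd3e, Mpzl2 was not among the genes tested, and Mpzl3 was higher in effector than in naive adults by 0.85 ± 0.19 (limma adjusted p = 0.00239). None of the 3 tested neighbours passed for neonates against naive or effector adults.

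Cd8b1, which encodes the beta chain of the CD8 coreceptor, lay in the range of the sensory receptor genes. On neonatal arrays 14.5% of those genes had a level at or above it, on effector arrays 20.9% and on naive arrays 24.1%. It passed the filter on dim features through 1 neonatal and 3 naive arrays and no effector array, so that its entry into the test itself depended on higher naive values. In naive males its mean was at or below the background quartile. Its levels spanned 4.04 to 4.29 in neonates, 3.15 to 3.78 with a median of 3.60 in effector adults and 3.67 to 4.62 with a median of 4.08 in naive adults, and effector and naive arrays overlapped. The effector difference was -0.56 ± 0.18 (limma adjusted p = 0.023). The call ended when arrays were centred on their medians (-0.42; limma adjusted p = 0.0709) and after quantile normalization (-0.38; limma adjusted p = 0.125), and without replicate 2 of naive males (-0.50), naive females (-0.42), effector females (-0.51) or effector males (-0.47), over a range of 0.00779 to 0.125 in adjusted p. The lower background on effector arrays went the same way, and its part in the difference was not tested. Neonates exceeded effector adults by 0.61 ± 0.22, which did not pass (limma adjusted p = 0.0592).

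Zap70, the kinase that binds phosphorylated ITAMs, was higher in effector than in naive adults, opposite to Cd3g. Its levels were 9.16, 8.75 and 8.80 in neonates. They were 8.93, 8.89 and 9.50 in effector females and 8.77, 8.85 and 8.66 in effector males. In naive females they were 8.52, 8.66 and 7.90, and in naive males 7.94, 8.15 and 8.30. Within each sex all effector arrays lay above all naive arrays, but the lowest effector male array and the highest naive female array met at 8.66. The difference was 0.69 ± 0.16, or 1.61-fold (limma adjusted p = 0.00311), with 0.75 ± 0.22 in females and 0.63 ± 0.22 in males (limma adjusted p = 0.034 and 0.0478). The male call was lost in 9 of 15 fits that each left out 1 array and the female call in 2 of 15, and after quantile normalization both were lost (0.61 in females and 0.42 in males; limma adjusted p = 0.0823 and 0.195). Neonates and effector adults differed by -0.03 ± 0.19, with an interval of -0.44 to 0.37 (limma adjusted p = 0.922). Neonates exceeded naive adults by 0.66 ± 0.19 (limma adjusted p = 0.0412). That call was lost in 19 of 28 alternatives, at differences of 0.53 to 0.77 and adjusted p between 0.0284 and 0.177 over all 28.

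Lat, the adaptor on which the signalling complex is built, differed in every one of the 3 main comparisons. Its levels were 9.70, 9.62 and 9.66 in neonates. They were 8.99, 9.02 and 9.14 in effector females and 8.82, 9.29 and 8.80 in effector males. In naive females they were 10.46, 10.54 and 10.51, and in naive males 10.56, 10.88 and 10.54. No array of the effector, neonatal or naive adult cells lay in the range of another of these groups. Lat was 2.97-fold lower in effector than in naive adults (-1.57 ± 0.12, SE, n = 6 each; limma adjusted p = 8.71e-08), at -1.45 ± 0.16 in females and -1.69 ± 0.16 in males. The female and male responses differed by 0.23 ± 0.23, with an interval of -0.26 to 0.73. Neonates were 1.89-fold lower than naive adults (-0.92 ± 0.14; limma adjusted p = 0.00083) and 1.57-fold higher than effector adults (0.65 ± 0.14; limma adjusted p = 0.00518). In order, naive males and naive females stood highest, then neonates, then effector females and effector males. The neighbours within each adult state did not differ beyond their spread: females minus males gave -0.16 ± 0.16 in naive and 0.08 ± 0.16 in effector cells. All 26 alternatives kept the effector call of Lat, at -1.71 to -1.43.

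Of the 2 nearest protein-coding genes on each side of Lat, Nfatc2ip was higher in effector than in naive adults by 0.96 ± 0.21 (limma adjusted p = 0.00208). Spns1, Sbk1 and Xpo6 differed by -0.21 ± 0.12, -0.18 ± 0.14 and 0.30 ± 0.12 and did not pass (limma adjusted p = 0.177, 0.323 and 0.0647). None of the 4 was called lower.

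The surface proteins showed smaller differences. Thy1, the glycolipid-anchored protein CD90, had levels of 7.51, 7.20 and 7.83 in neonates, 8.06, 7.77 and 8.14 in effector females, 7.64, 7.92 and 7.60 in effector males, 8.50, 8.14 and 8.03 in naive females and 7.53, 7.61 and 7.45 in naive males. Naive females stood above naive males with no overlap, and the neonatal, effector male and naive male ranges overlapped. Females exceeded males by 0.69 ± 0.19 in naive cells, which did not pass over all genes (limma adjusted p = 0.211). Effector and naive adults differed by -0.02 ± 0.14, with an interval of -0.31 to 0.27 (limma adjusted p = 0.93), and the sign turned to 0.12 with arrays centred on their medians. Neonates differed from naive adults by -0.36 ± 0.17 and from effector adults by -0.34 ± 0.17 (limma adjusted p = 0.189 and 0.16). Against naive females alone the neonatal difference was -0.71 and passed (limma adjusted p = 0.0422; range over all alternatives 0.0422 to 0.98).

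Cd5, which encodes a receptor that dampens T cell receptor signalling, had low levels, with 5.18% of the sensory receptor genes at or above it on neonatal, 4.96% on effector and 10.7% on naive arrays. It spanned 4.44 to 5.29 in neonates, 4.42 to 5.01 with a median of 4.60 in effector adults and 4.55 to 4.95 with a median of 4.87 in naive adults. The 3 ranges overlapped. The differences were -0.17 ± 0.15 for effector against naive adults, 0.04 ± 0.18 for neonates against naive adults and 0.21 ± 0.18 for neonates against effector adults, and none passed (limma adjusted p = 0.393, 0.927 and 0.447).

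**Figure D2:**
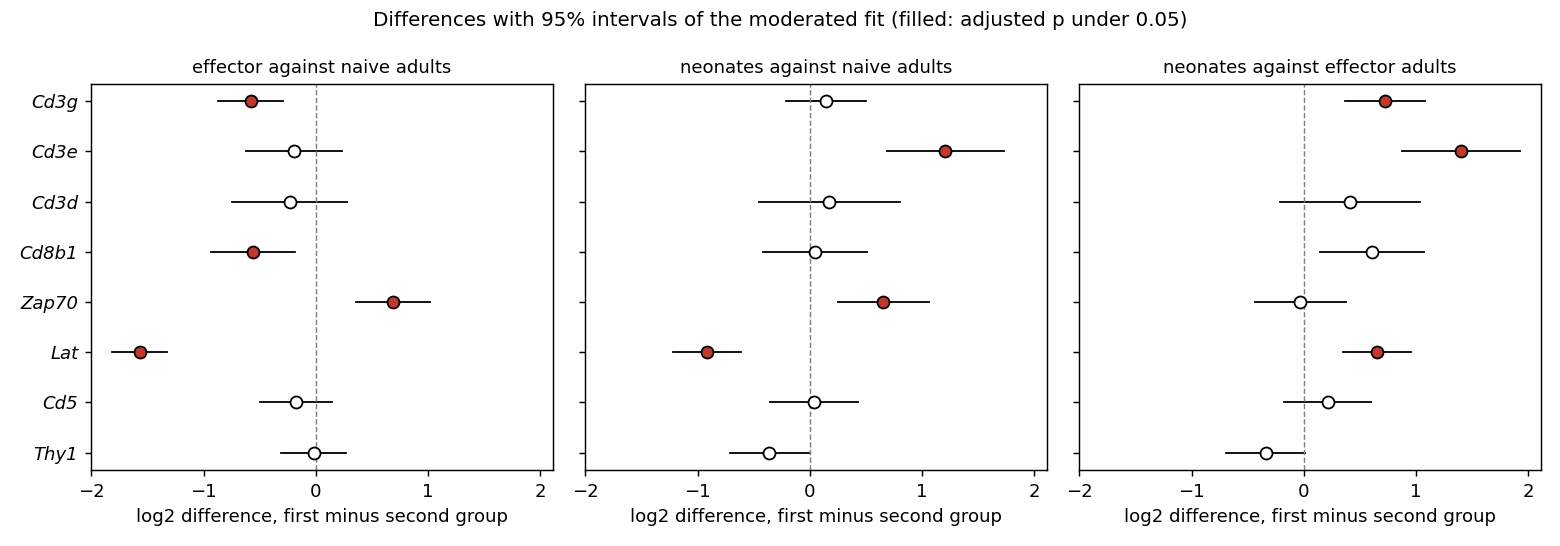
Log2 difference of each measured gene in the 3 main comparisons, first minus second group, with the 95% interval of the moderated fit (line), filled where the adjusted p was under 0.05. Lat is lowest against naive adults in both effector adults and neonates (-1.57 and -0.92), Cd3e is highest in neonates (1.21 and 1.40), and Thy1 and Cd5 reach the threshold in none of the 3.

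Counted over the 8 measured genes, 4 differed between effector and naive adults, 1 higher and 3 lower, where 34.6% of all genes tested were called, 23.7% higher and 10.9% lower. The lower calls include Cd8b1, which entered the test through naive and neonatal arrays alone, and without it 3 of 7 were called. The median difference of all 8 was -0.21, against 0.03 over all genes. Centring each array on its median moved the median of all genes in this comparison by 0.14, and the share of higher calls among all calls stood at 83% instead of 68.5%. For neonates against naive adults 3 of 8 were called, 2 higher and 1 lower, where 10.2% of all genes were called, 6.04% higher and 4.12% lower. For neonates against effector adults 3 of 8 were called, all higher, where 20.6% were called, 5.93% higher and 14.7% lower. The median was 0.10 against naive adults (0.02 over all genes) and 0.51 against effector adults (-0.03 over all genes). In the last of these, centring moved the median of all genes by -0.11 and the share of higher calls stood at 16.4% instead of 28.8%. Each pair of these comparisons shares arrays, so they are not independent of each other. Groups without overlap were seen for 2, 3 and 4 of the 8 genes in the 3 comparisons, against 20.1%, 11% and 24.1% of all genes. Cd8b1 is among the 4 of the last comparison and is part of each median. Its entry through naive and neonatal arrays alone thus bears on these values too, which are descriptions only.

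Within the sexes, 3 of 8 members were called for effector against naive females, 1 higher and 2 lower, where 14% of all genes were called, 10.2% higher and 3.77% lower. For effector against naive males 2 of 8 were called, 1 higher and 1 lower, where 24.9% were called, 18.7% higher and 6.25% lower. Lat and Zap70 were called in both, and Cd3g in females (-0.63 ± 0.19; limma adjusted p = 0.0402), a call lost in 7 of 15 fits without 1 array. The female call of Cd3g was also lost with arrays centred on their medians (-0.50; limma adjusted p = 0.117). With no dim filter and with a block for the replicate number it was lost too (limma adjusted p = 0.0541 and 0.0618). Cd3g in males was at -0.53 ± 0.19 (limma adjusted p = 0.0551) and passed after quantile normalization (-0.70; limma adjusted p = 0.0183), with a trended and robust prior (limma adjusted p = 0.0262) and with the dim filter at percentile 60 (limma adjusted p = 0.0457). No member was called by limma for the difference of these responses, with 0 of 8 at an unadjusted p under 0.05, against 5.33% of all genes (0 genes, or 0%, were called). No member was called by limma between females and males in naive cells, where 0.209% of all genes were called, 0.105% in each direction. At an unadjusted p under 0.05 were 4 of 8, against 9.93% of all genes. In effector cells no member was called by limma and 0 of 8 had an unadjusted p under 0.05, against 2.04% of all genes (0.0308% called, 0.00615% higher and 0.0246% lower). The 4 in naive cells were Cd3d (-0.96 ± 0.34), Thy1 (0.69 ± 0.19), Cd3e (0.67 ± 0.28) and Cd3g (0.41 ± 0.19), and for each of them the 3 arrays of naive females did not overlap those of naive males, as for 13.1% of all genes. Of these, Cd3d was lower in naive females and the other 3 were higher. The background quartile was 3.96 on naive female and 4.18 on naive male arrays, and Cd3d lay near the background. Naive male arrays 1 and 2 were also among those that correlated least with the rest. The part of either in these differences was not tested.

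Other genes of the pathway were taken from 4 lists with 65 entries, of which 59 were tested. Between effector and naive adults 12 were higher and 10 lower, 22 in all. Of all genes 34.6% were called, 23.7% higher and 10.9% lower. Among kinases, phosphatases and their adaptors 4 of 15 were higher, near the share of all genes called higher, and none lower. The tyrosine kinases Tec and Txk rose by 1.49 ± 0.19 and 1.23 ± 0.21, and Sla, an adaptor that dampens receptor signalling, rose by 1.20 ± 0.16 (limma adjusted p = 2.28e-05, 4.04e-04 and 5.26e-05). Among adaptors around Lat 4 of 19 were higher and 5 lower. Lax1, a membrane adaptor, fell by 1.24 ± 0.16, Sit1, another membrane adaptor, fell by 1.07 ± 0.27, and Tespa1 fell by 1.05 ± 0.12 (limma adjusted p = 3.07e-05, 0.00638 and 1.39e-05). In the downstream branches 3 of 15 were higher and 3 lower. Prkcq, the protein kinase C isoform of the T cell synapse, fell by 1.19 ± 0.17, Map4k1 rose by 0.79 ± 0.15 and Bcl10, a partner of Malt1 in NF-kB activation, rose by 0.75 ± 0.20 (limma adjusted p = 7.15e-05, 7.41e-04 and 0.00934). Of 10 coreceptors and ITAM partners, Cd48, a ligand of Cd2, rose by 0.97 ± 0.15, while the ITAM adaptor Tyrobp fell by 0.88 ± 0.28 and Ptprcap, which binds the phosphatase CD45, fell by 0.30 ± 0.10 (limma adjusted p = 1.24e-04, 0.0265 and 0.0293).

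For neonates against naive adults 8 of the 59 were higher and 3 lower, 11 in all. Of all genes 10.2% were called, 6.04% higher and 4.12% lower. Sla rose by 1.20 ± 0.20 and Ubash3b, a phosphatase acting on ITAM-coupled kinases, by 0.76 ± 0.17, in a list where 2 of 15 rose. In the downstream branches 3 of 15 rose, namely Itpkb, a kinase of inositol trisphosphate, by 0.97 ± 0.23, Dgkz, which consumes the messenger diacylglycerol, by 0.85 ± 0.23, and Map4k1 by 0.63 ± 0.18. Among the adaptors, Tespa1 fell by 0.75 ± 0.15, Sh2d2a, an adaptor that binds Lck, rose by 0.69 ± 0.13 and Grb2 rose by 0.60 ± 0.13, and 2 of 19 were higher and 2 lower in all. Of the coreceptors and ITAM partners, Cd28, the costimulatory receptor, rose by 0.81 ± 0.22 and Ptprcap fell by 0.72 ± 0.12. The adjusted p of these genes in limma lay between 0.00153 for Sla and 0.0381 for Map4k1.

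Against effector adults neonates had 10 of the 59 higher and 6 lower, 16 in all. Of all genes 20.6% were called, 5.93% higher and 14.7% lower. Txk and Tec fell by 1.73 ± 0.26 and 1.40 ± 0.23 and Ptpn22, a phosphatase that acts on Lck and Zap70, by 0.66 ± 0.19, with 2 of 15 in that list higher and 3 lower. Of 19 adaptors 2 were higher, Lax1 by 1.08 ± 0.20 and Lcp2, the partner of Lat also known as SLP-76, by 0.37 ± 0.12. In the downstream branches 5 of 15 were higher and 1 lower, with Malt1 at 1.13 ± 0.21, Itpkb at 0.97 ± 0.23 and Rasgrp1, which activates Ras, at 0.82 ± 0.20. Cd48 fell by 1.12 ± 0.18, Cd28 rose by 0.90 ± 0.22 and Ptprcap fell by 0.42 ± 0.12, and 1 of 10 in this list was higher and 2 lower. The adjusted p of these genes in limma lay between 4.13e-04 for Txk and 0.042 for Lcp2.

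**Figure D3:**
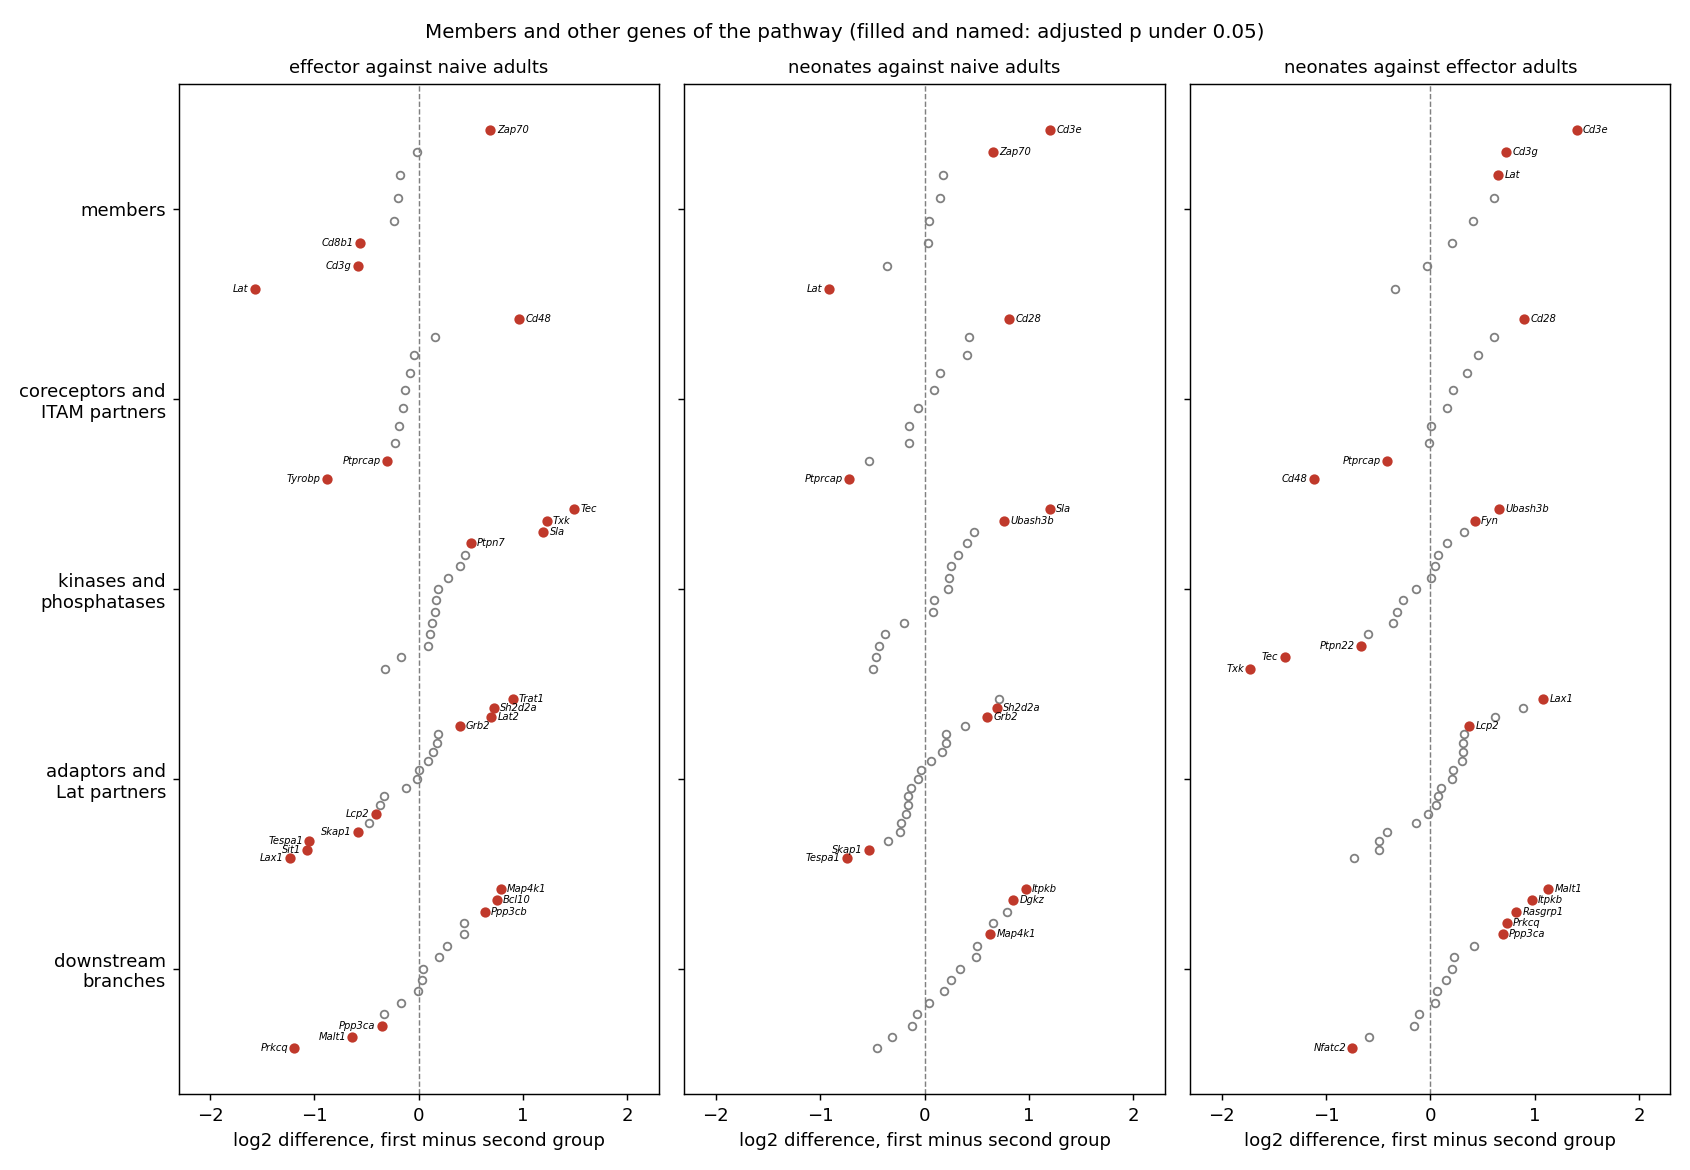
Log2 differences of the members and of 59 other genes of the pathway in 4 lists, first minus second group, for the 3 main comparisons, with genes at an adjusted p under 0.05 filled and named. For effector against naive adults the called kinases and phosphatases all lie above 0, led by Tec at 1.49. The called adaptors lie on both sides, from Lax1 at -1.24 to Trat1 at 0.90. Trat1 was dim in naive adults, at a mean of 4.11, and its effector and naive arrays overlapped. In that comparison 23.7% of all genes were called higher and 10.9% lower.

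Markers of T cells were measured on the same arrays. Of 9 entries for receptor chains only Ptcra, the pre-T cell receptor alpha chain, had a feature, at 4.98 ± 0.37 in neonates, 5.21 ± 0.048 in effector adults and 5.44 ± 0.25 in naive adults (SD, n = 3, 6 and 6), and it passed no main comparison. The 13 other T cell markers with a feature had a summed level of 9.82 to 10.18 on neonatal, 9.69 to 10.12 on effector and 9.83 to 10.12 on naive arrays (log2 of the sum). The brightest genes weigh most in such a sum, above all Bcl11b, with means of 8.95 in neonates, 8.60 in effector and 9.28 in naive adults. Similar sums therefore do not show similar T cell content. Cd40lg lay at or below the background quartile in all 3 groups, Foxp3 in neonates and naive adults, and Cd8a in naive adults. Cd4 averaged 4.38, 4.22 and 4.45 in neonates, effector and naive adults and passed no main comparison. Of 11 tested markers 3 were higher and 1 lower in effector than in naive adults, where 34.6% of all genes were called, 23.7% higher and 10.9% lower, with the chemokine receptor Ccr7 up by 1.47 ± 0.22 and the transcription factor Bcl11b, which ILC2s also use, down by 0.68 ± 0.13. Against the same shares, of 8 tested markers of NK cells and ILC1s 1 was higher and 3 lower in effector adults. Of 6 macrophage and neutrophil markers 3 were lower, of 6 endothelial and epithelial markers 1 was lower and of 2 B cell markers 1 was higher. Several of these markers were dim: Adgre1, Mrc1 and S100a9 averaged 3.97, 3.94 and 3.90 in effector and 4.45, 4.51 and 4.53 in naive adults. The NK cell markers Klrb1c, Klrk1 and Klrd1 averaged 3.79, 3.70 and 3.49 in effector and 4.43, 4.19 and 4.09 in naive adults. Entry of such dim markers into the test may have depended on the group where they were higher, so these counts are descriptions only. The background quartile was also lower on effector arrays, at 3.37 against 4.07, and its part in these counts was not tested. For neonates against naive adults, where 10.2% of all genes were called, 1 of the 11 T cell markers and 1 of the 6 endothelial and epithelial markers were higher, 1 of the 6 macrophage and neutrophil markers was lower, and none of the NK or B cell markers was called. For neonates against effector adults, where 20.6% were called, 1 T cell marker was higher and 1 lower, 2 endothelial and epithelial markers, 1 macrophage and neutrophil marker and 1 B cell marker were higher, and no NK cell marker was called. Whether other cells, T cells among them, within the isolated cells contributed to the CD3 signal was not tested.

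Variable segments of the T cell receptor genes were looked up after the annotation was seen. Of 8 with a feature, 5 were tested and 4 of these were lower in effector than in naive adults, where 34.6% of all genes were called, 10.9% lower. The gamma segments Trgv6 and Trgv5 fell by 1.67 ± 0.44 and 1.20 ± 0.39, and the alpha segments Trav9d-3 and Trav12-2 fell by 0.82 ± 0.27 and 0.78 ± 0.16 (limma adjusted p = 0.00887, 0.0284, 0.0281 and 0.00174). Both gamma segments were dim on effector arrays, with medians of 3.61 for Trgv6 and 3.72 for Trgv5, against 5.36 and 4.97 on naive arrays. Their entry into the test may thus have depended on the higher naive values. The count of lower segments is therefore a description only. The neonatal mean of Trgv6 was at or below the background quartile. Trgv6 spanned 3.21 to 3.44 in neonates, 2.45 to 5.21 in effector adults and 3.96 to 6.14 in naive adults, so the effector and naive arrays overlapped. Neonates were lower than naive adults for Trgv6 (-1.95 ± 0.54; limma adjusted p = 0.0338), while Trav12-2 did not pass there and was higher in neonates than in effector adults (0.62 ± 0.20; limma adjusted p = 0.0394). Variable segments belong to families of similar copies, and their signals are uncertain. The fifth tested segment, Trav7-4, did not pass between effector and naive adults (-0.37 ± 0.19; limma adjusted p = 0.143). Of those not tested, Trav14d-3-dv8 and Trbv13-2 averaged 3.65 and 3.72 in effector against 3.24 and 3.51 in naive adults, and Trav3-4 averaged 1.61 against 1.80. Between neonates and naive adults Trgv6 was lower while Cd3g did not pass. The part of the segments in the difference of Cd3g was not tested.

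The genes most like 3 of the members over the 15 arrays were found by the root mean square difference of profiles, each centred on the gene's own mean, for the 3 members called in the most of the main comparisons, with ties broken by the range of group means. For Lat, whose own deviation was 0.72, the nearest were Neurl3 at 0.24, H2-Ke6 at 0.27 and Hcst at 0.27. Hcst, which encodes the signalling adaptor DAP10, averaged 10.46 in neonates, 9.24 in effector females, 9.39 in effector males, 10.97 in naive females and 10.91 in naive males. For Cd3e, with an own deviation of 0.65, they were Vps37b at 0.27, Tnfaip8 at 0.31 and Cwc25 at 0.33. For Zap70, with an own deviation of 0.42, they were Xbp1, a transcription factor of the secretory pathway, at 0.15, Notch1 at 0.16 and Sh2d2a at 0.18. Xbp1 averaged 8.93 in neonates, 9.27 in effector females, 9.01 in effector males, 8.42 in naive females and 8.18 in naive males. These are descriptions over the same arrays, with no test.

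**Figure D4:**
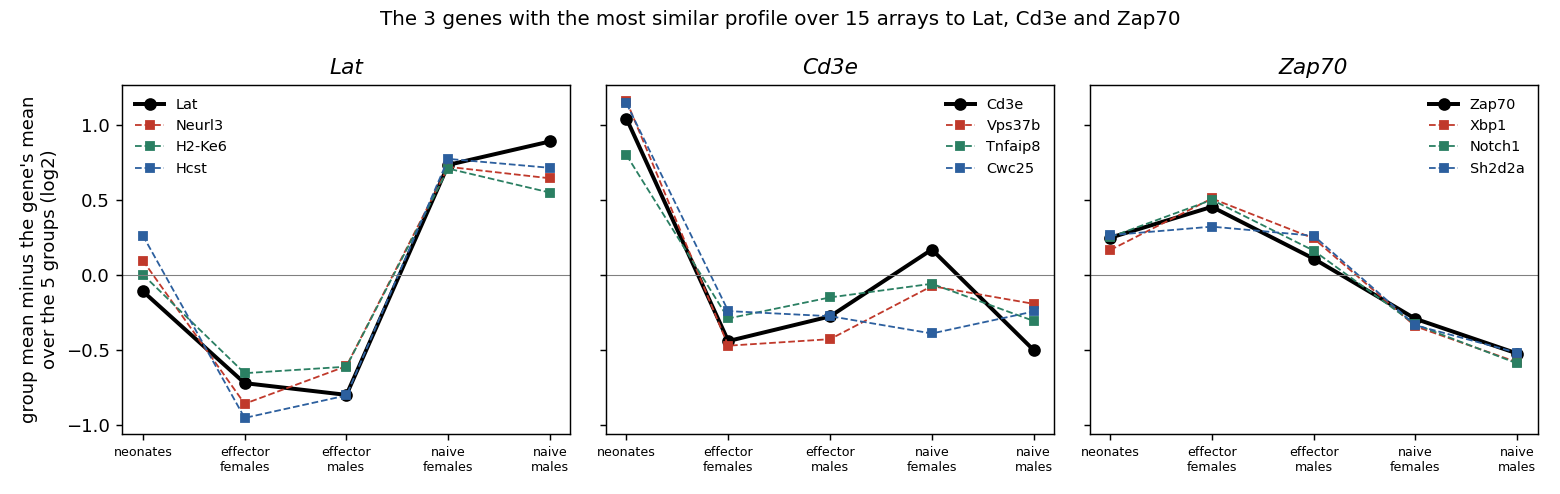
Group means of Lat, Cd3e and Zap70 (black) and of the 3 genes nearest to each (dashed), after subtracting each gene's mean over the 5 groups, on the log2 scale. Lat and its neighbours in profile are low in effector adults and high in naive adults, those of Cd3e peak in neonates, and those of Zap70 are lowest in naive males.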

How the data were processed

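Per the submitters' processing notes, the authors made the deposited log2 expression levels by RMA in Affymetrix Expression Console. RMA subtracts background, equalises the arrays' distributions and combines the probes of a feature, so a shift of most genes between groups is partly removed. Their versions and filters are not stated in those notes. The table held 41345 features, of which 23521 carried exactly 1 gene symbol in the platform annotation. Features above percentile 40 of the array on 3 or more arrays were retained. Of several features of a gene the one with the highest mean was used, which left 16257 genes.

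In R 4.3.3, limma 3.58.1 estimated 5 group means from the 15 arrays, and eBayes moderated the variances (residual degrees of freedom 10, prior 5.05). The fit gave 8 comparisons, with the adult sexes weighted equally where pooled. Tests were two-sided, with Benjamini-Hochberg adjustment over all genes, and "called" means an adjusted p under 0.05. SEs and 95% intervals are moderated values of this fit. The fit was tested on simulated data. The number of arrays limits precision. The members, lists and comparisons were chosen with earlier results of these data known. All members were named. From each pathway list up to 3 called genes with the largest difference per main comparison were named, and up to 4 per marker list. Figures were drawn with matplotlib 3.10.9.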

Additional observations from a re-analysis of the deposited data

Results flagged for a closer look

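Over the effector adult and the naive adult arrays of each member, 16 groups of 6, the distance of the extreme array from its neighbour was large for 2. Zap70 was at 9.50 on effector female array 3, above the other 5 effector arrays, and Lat was at 10.88 on naive male array 2, above the other 5 naive arrays. Chance marks about 1 in 20 such groups.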

How the results depend on the processing

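The counts of called members held within 1.5 times in most alternatives. With a difference of at least 1 on the log2 scale required, 1 was called instead of 4 for effector against naive adults, instead of 3 in females and instead of 2 in males, Lat in each case, and 1 instead of 3 for neonates against naive and against effector adults, Cd3e in both. The labels state no pairing by replicate number, and deviations from group means correlated at -0.11 to 0.10 over 30 same-numbered pairs. Such values show no strong shared effect of the replicate number, but they cannot exclude that same-numbered arrays were handled together. The replicate block left 1 call in females and 1 in males, and 4, 2 and 3 in the 3 main comparisons. In males 1 member stayed called with no dim filter, with array weights and without the 3 arrays of lowest correlation, the last chosen after seeing the data. Leaving out each array in turn gave 3 to 4 calls for effector against naive adults, 1 to 3 in females (1 without naive female array 3 or effector female array 3) and 1 to 3 in males. In males 1 was called without effector male array 1 or 3, effector female array 1 or 2, naive female array 1 or naive male array 2. It gave 2 to 3 calls for neonates against naive adults and 3 to 4 against effector adults. Comparisons of the sexes and of their responses stayed at 0.

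No called difference changed its sign. Among differences that did not pass, Thy1 in effector against naive adults was at 0.12 after centring and 0.0206 without the 3 arrays, and -0.069 to 0.0505 without single arrays. Cd5 in females was at 0.10 after centring, 0.0744 after quantile normalization and 0.042 with array weights, and -0.16 to 0.0861 without single arrays. In males Cd3e was at -0.21 without the 3 arrays and Thy1 at -0.0524 after quantile normalization. Neonates against naive males alone gave -0.31 for Cd3d and -0.0271 for Cd5, and against naive females alone -0.0628 for Cd3g. Neonates against naive adults without the 3 arrays gave -0.13 for Cd8b1. Zap70 in neonates against effector adults was at 0.0506 after quantile normalization, 0.14 against effector males alone and 0.044 without the 3 arrays. Cd3d in effector females against males was at -0.0049 after centring. Without single arrays, neonates against naive adults ranged over -0.25 to 0.43 for Cd3d, -0.0647 to 0.18 for Cd8b1 and -0.18 to 0.25 for Cd5, and neonates against effector adults over -0.0188 to 0.67 for Cd3d, -0.16 to 0.0642 for Zap70 and -0.0057 to 0.42 for Cd5. The range was -0.0725 to 0.50 for Cd3d in females. For the difference of responses it was -0.24 to 0.10 for Cd3g, -0.0613 to 0.39 for Cd8b1 and -0.12 to 0.26 for Zap70. For females against males it was -0.32 to 0.11 for Cd8b1 in naive cells, and in effector cells -0.15 to 0.22 for Cd3d, -0.11 to 0.16 for Cd8b1 and -0.0075 to 0.24 for Lat. The causes were not tested.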
